A study of Mus musculus with 6 samples.

Results

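The solute carriers described here are 26 genes, read by 28 probes, out of 45269 probes on the array. The solute carrier (Slc) families are membrane proteins that move amino acids, sugars, metal ions, inorganic ions, nucleotide sugars, vitamins and mitochondrial metabolites down gradients, in exchange for one another, or coupled to sodium or protons. The number in a name gives the family and the last number the member, so that Slc25 genes are carriers of the inner mitochondrial membrane and Slc35 genes are mostly carriers of the Golgi and endoplasmic reticulum. In the testis, Sertoli cells line the seminiferous tubule and pass nutrients and metals to germ cells that are cut off from the blood, and much of that traffic runs through Slc proteins.

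Members were chosen by their presence in the authors' deposited table of 2415 probes called changed between these same arrays, under a deposited symbol of Slc and a digit. Slc2a1, Slc2a8 and Slc7a11 were left out. The values that chose the members are therefore the same Gata4 siRNA against NT siRNA difference that is given below, so the differences are a description and carry no test of their own. A member's probe is the one with the highest mean over the 6 arrays. Slc genes outside that table are unnamed here, and the probes just outside their threshold can therefore not be given. The order of the members on that threshold was not read.

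The cells were TM4, an immortalized mouse line derived from Sertoli cells, treated with small interfering RNA (siRNA) at 0.1 µM with a lipid transfection reagent. The Gata4 siRNA group (3 samples) received a pool of 4 siRNAs against Gata4, which encodes a zinc finger protein that regulates transcription in gonads and heart. The NT siRNA group (3 samples) received 1 non-targeting siRNA. Both groups are the same line, given as passage 12 in the sample labels and passage 13 in the protocol. The siRNAs are shown because they are the only difference between the groups that the labels state. They are printed as deposited, 5′ to 3′.
Gata4 siRNA 1: agagaauagcuucgaacca
Gata4 siRNA 2: ggauauggguguuccgggu
Gata4 siRNA 3: cugaauaaaucuaagacgc
Gata4 siRNA 4: ggacauaaucaccgcguaa
NT siRNA: ugguuuacaugucgacuaa

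Each sample was read on its own Illumina BeadChip array, and the deposited intensities nearly share their distribution, with a median of 6.7 or 6.8 on every array. A noise floor of 17.1 intensity units was taken from the values below 0, and 17740 probes lay above it on at least 3 arrays and were tested. Probe names came only from the authors' table of probes called changed, and no probe there carries Gata4. The Gata4 transcript was therefore not read here, and neither the knockdown nor the group labels are checked by it. Of the 13 Sertoli markers listed, Sox9 and Inhbb were named, and both lay above the noise floor on all 6 arrays, with log2 fold changes of 0.59 ± 0.11 for Sox9 and -0.53 ± 0.12 for Inhbb (± SE). Of the peritubular myoid markers 4 of 6 were named, all higher in Gata4 siRNA cells by 0.53 to 0.93 on the log2 scale. Of the Leydig, germ cell, macrophage and endothelial markers only Cd14 was named, at 0.39 on the log2 scale, and it was not called. A marker that is not named is only absent from the authors' table of changed probes. Its level was not read, so these names do not show which cell types were present. The part of other cells in the Slc differences was not tested. Nothing in the labels says that the samples were separate cultures, so every SD below is the spread of these samples and may be technical. The standard errors may be technical too, and they draw on the variance of all probes tested besides a gene's own spread. In RNA from a whole culture, fewer cells of a kind and less RNA per cell cannot be told apart.

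In Gata4 siRNA cells 18 of the 26 Slc genes had a higher intensity than in NT siRNA cells and 8 had a lower one. The genes that were higher included the potassium-dependent sodium/calcium exchanger Slc24a3, the vesicular glutamate transporter Slc17a6, the iron importer Slc11a2 and all 6 members of the Slc17 and Slc35 families. Those that were lower included the iron exporter Slc40a1, the copper importer Slc31a1, the mitochondrial citrate carrier Slc25a1 and 3 of the 4 amino acid transporters. Over the 24 genes above the noise floor on all arrays, log2 fold changes ran from -1.25 for Slc40a1 to 1.56 for Slc24a3. The fitted median was 0.54 over the 26 members, 0.52 with Slc17a6 and Slc22a13 at their lower bounds, and 0.01 over all probes tested. With these bounds, 10 members were at least 1.5-fold higher and 5 at least 1.5-fold lower, beside 4.35% and 4.94% of all probes tested. At 2-fold there were 2 higher and 1 lower, beside 0.626% and 0.767%.

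All 26 genes had groups that did not overlap, 18 with every Gata4 siRNA array above every NT siRNA array and 8 with every Gata4 siRNA array below. The same held for 17.0% (higher) and 16.2% (lower) of all probes tested. In the fit across all probes (limma, adjusted p under 0.05) 13 members were called higher, 6 were called lower and 7 were not called, beside 4.07% of all tested probes called higher and 4.71% called lower. Since the authors' own test on these arrays chose the members, nothing is read from these counts. Among the 2401 tested probes that the authors called, 50.9% had a positive log2 fold change here, and among the Slc members 69.2%. Slc2a1, Slc2a8 and Slc7a11, left out by the rule, were all lower. Leaving them out raises the share of higher members and their median, so nothing is read from this share either. All 26 members passed the filter on low values, 24 with all 6 arrays above the noise floor. Slc17a6 and Slc22a13 passed it only through the Gata4 siRNA group, so a difference in that direction was built into their passing.

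The number of calls moved with single arrays, for the members and for all probes, of which 8.78% were called with all 6 arrays. Without Gata4 siRNA array 2 there were 2 members called higher and 1 lower, and 1.45% of all probes were called. Without Gata4 siRNA array 1 there were 3 and 1 (2.10% of all probes), and without Gata4 siRNA array 3 there were 8 and 4 (5.93%). Leaving out NT siRNA array 1 gave 4 and 2 (2.75%), NT siRNA array 2 gave 6 and 3 (4.08%), and NT siRNA array 3 gave 10 and 5 (9.03%). The sign of every member's difference was kept in each of these fits, a direction that non-overlapping groups largely fix. Slc24a3, Slc40a1 and Slc17a6 were the 3 members called in all 10 alternatives tried on single genes. Of the called members 7 kept their call in only 2 of the 10, namely Slc7a6, Slc31a1, Slc25a10, Slc25a20, Slc25a24, Slc35e4 and Slc17a5. Slc10a3 kept it in 4, and Slc7a3 and Slc22a13 in 5.

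**Figure D1:**
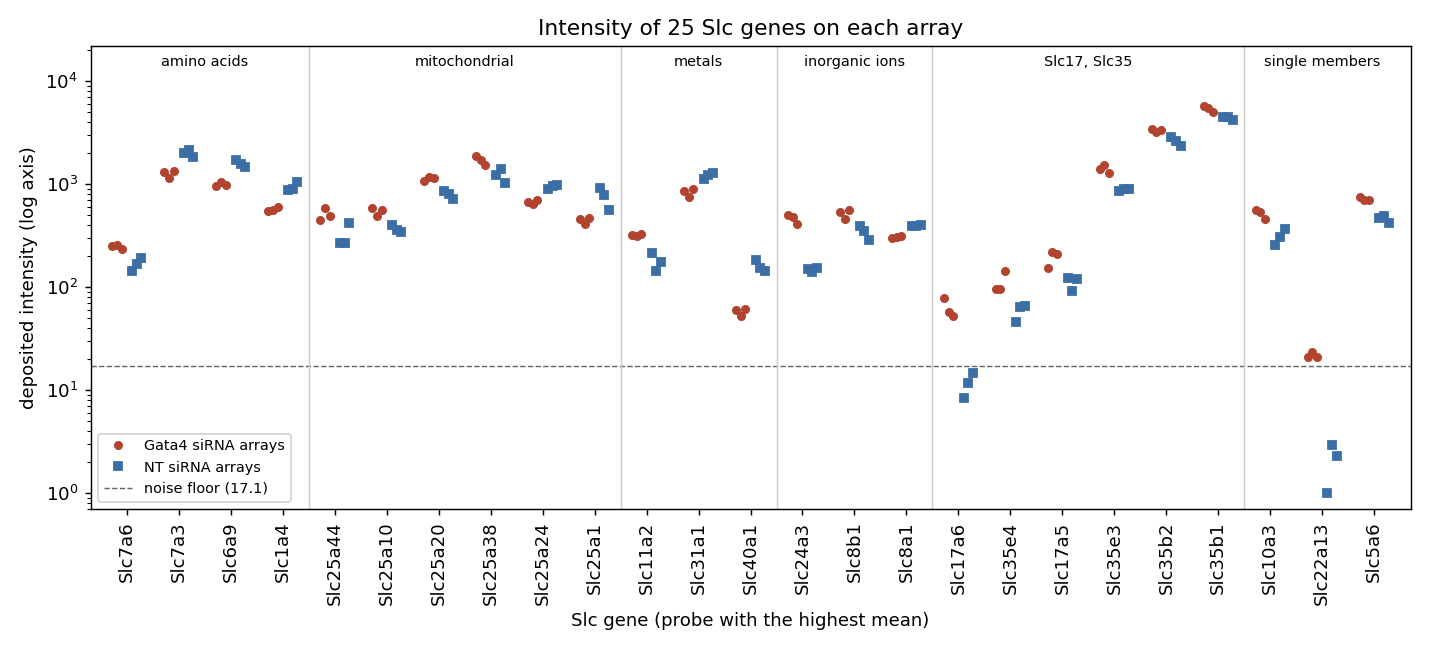
Deposited intensity (log axis) of 25 of the 26 Slc genes, grouped by what the family carries, with the 3 Gata4 siRNA arrays (red circles) left of the 3 NT siRNA arrays (blue squares). The dashed line is the noise floor of 17.1, below which lie all 3 NT siRNA arrays for Slc17a6 and Slc22a13.

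Of the 4 amino acid transporters 3 were lower. Slc1a4 (ASCT1), a sodium-dependent exchanger of serine, alanine and cysteine, had intensities of 549.7, 557.7 and 596.2 in Gata4 siRNA cells, against 876.2, 893.7 and 1045.4 in NT siRNA cells. The gap between the groups was wider than the range within either group, and the log2 fold change was -0.71 ± 0.12 (± SE, 3 arrays per group, as for all log2 fold changes below). Slc6a9 (GlyT1), the sodium- and chloride-dependent glycine transporter, read 949.4, 1044.6 and 984.2 in Gata4 siRNA cells and 1716.7, 1576.3 and 1480.0 in NT siRNA cells. It was lower on every Gata4 siRNA array, at 0.624 of the NT siRNA mean, with a log2 fold change of -0.67 ± 0.12. Slc7a3 (CAT3), a carrier of arginine and lysine, read 1311.6, 1150.6 and 1348.8 in Gata4 siRNA cells, against 1990.3, 2158.4 and 1826.2 in NT siRNA cells. Every Gata4 siRNA array was lower, with a log2 fold change of -0.64 ± 0.13. All 3 were called lower, beside 4.71% of all tested probes, and nothing is read from this count.

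Slc7a6 went the other way. It encodes y+LAT2, a light chain that works as a heterodimer with Slc3a2 and exchanges arginine for neutral amino acids. Its intensities were 250.0, 255.4 and 232.3 in Gata4 siRNA cells, against 141.7, 167.5 and 191.6 in NT siRNA cells. The NT siRNA arrays spread more than the Gata4 siRNA arrays, array 3 being the nearest to the other group, and the log2 fold change was 0.53 ± 0.14. It was called higher but kept the call in only 2 of the 10 alternatives. Slc7a3 and Slc7a6 thus belong to the same family and differed in direction. The light chain of the cystine/glutamate exchanger Slc7a11, which is outside the 26, had a log2 fold change of -0.85 ± 0.16 on the brightest of its 3 probes, and of -1.41 ± 0.12 and -0.80 ± 0.13 on the others.

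Of the metal carriers, both directions were seen within iron. Slc40a1, ferroportin, which exports ferrous iron from cells, had intensities of 59.2, 52.1 and 61.6 in Gata4 siRNA cells, against 181.7, 153.6 and 144.3 in NT siRNA cells. All 6 values lay above the noise floor and the mean fell to 0.361 of the NT siRNA mean, the lowest ratio among the members measured in both groups, with a log2 fold change of -1.25 ± 0.13. Slc11a2 (DMT1), the proton-coupled importer of ferrous iron, read 323.4, 311.1 and 330.9 in Gata4 siRNA cells and 212.4, 143.6 and 176.4 in NT siRNA cells. Here the Gata4 siRNA arrays lay close together and the NT siRNA arrays spread widely, and the log2 fold change was 0.82 ± 0.15. Both were called, and Slc11a2 kept its call in 8 of 10 alternatives.

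Slc31a1 (CTR1), the high-affinity copper importer of the plasma membrane, was lower. It read 854.7, 750.0 and 886.1 in Gata4 siRNA cells, against 1119.6, 1233.2 and 1267.4 in NT siRNA cells. The gap between the groups was wider than the range within either, with a log2 fold change of -0.53 ± 0.12. Its call remained in 2 of 10 alternatives.

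Exchangers that move calcium against sodium also differed among themselves. Slc24a3 (NCKX3), which couples calcium export to sodium entry and potassium export, had intensities of 506.1, 483.5 and 411.3 in Gata4 siRNA cells, against 149.5, 140.8 and 151.9 in NT siRNA cells. Its mean was 3.17 times the NT siRNA mean, the log2 fold change was 1.56 ± 0.12, and the lowest Gata4 siRNA array was still far above the highest NT siRNA array. Slc8a1 (NCX1), the plasma membrane sodium/calcium exchanger best known from heart muscle, was lower at 299.7, 303.1 and 314.2 in Gata4 siRNA cells, against 389.8, 393.7 and 402.1 in NT siRNA cells. The arrays of each group nearly coincided, and the log2 fold change of -0.35 ± 0.11 was not called. That standard error draws on the variance of all probes tested and is not the spread of these arrays alone. The deposited symbol Slc24a6 is now Slc8b1 (NCLX), the sodium/calcium exchanger of the inner mitochondrial membrane. It averaged 515.9 ± 54.2 in Gata4 siRNA cells and 340.3 ± 54.0 in NT siRNA cells (intensity, SD, n = 3 each), with a log2 fold change of 0.58 ± 0.15 that was not called.

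**Figure D2:**
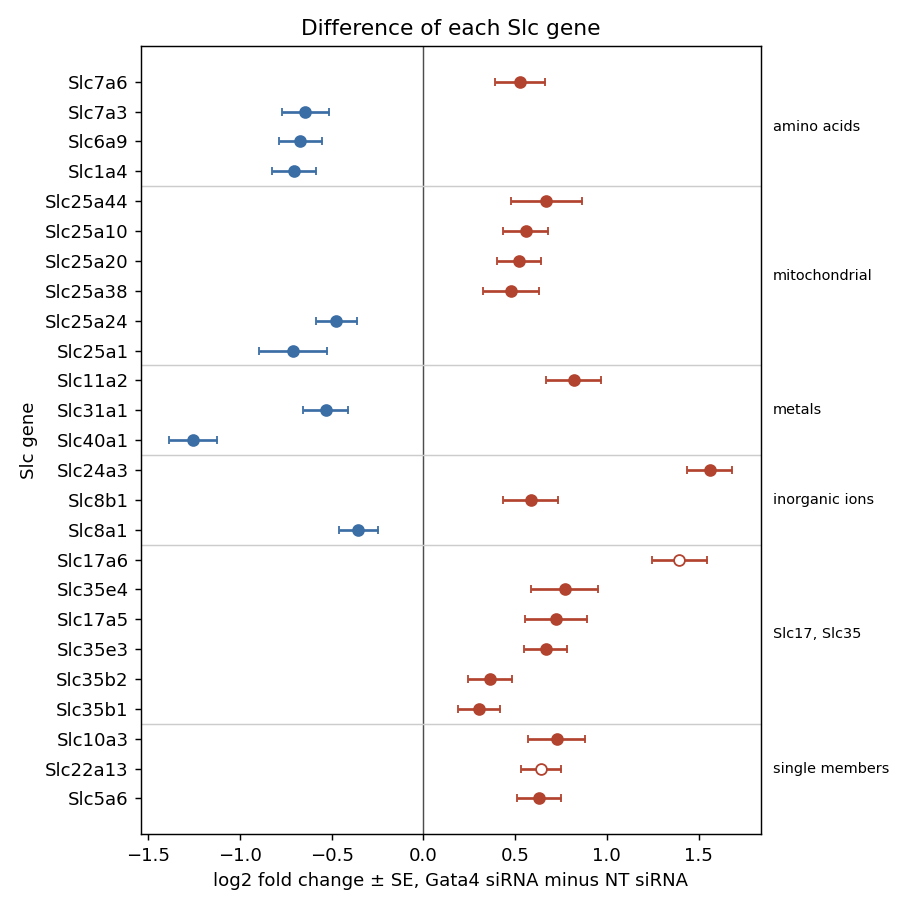
Log2 fold change of 25 of the 26 Slc genes (Gata4 siRNA minus NT siRNA, points) with its standard error (bars, 3 arrays per group), by class. Red points are higher and blue points lower in Gata4 siRNA cells, open points mark Slc17a6 and Slc22a13, whose NT siRNA values lie below the noise floor, and the filled points run from -1.25 for Slc40a1 to 1.56 for Slc24a3.

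The mitochondrial carriers formed the largest class, with 7 members, of which 5 were higher (3 called) and 2 lower (1 called). Over all tested probes 4.07% were called higher and 4.71% lower, and nothing is read from the counts of this class. Slc25a10, the dicarboxylate carrier that exchanges malate and succinate for phosphate, read 579.4, 493.8 and 564.7 in Gata4 siRNA cells and 399.6, 354.3 and 344.1 in NT siRNA cells (log2 fold change 0.56 ± 0.12). The lowest Gata4 siRNA array lay clear of the highest NT siRNA array, and the gene was called higher, a call kept in 2 of 10 alternatives. Slc25a20, which carries acylcarnitines in for fatty acid oxidation, averaged 1129.2 ± 48.0 in Gata4 siRNA cells and 783.5 ± 70.4 in NT siRNA cells (intensity, SD, n = 3 each). Its log2 fold change was 0.52 ± 0.12, also called higher, and kept in 2 of 10 alternatives.

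A further 2 carriers were higher without a call. Slc25a44, a carrier of branched-chain amino acids, read 451.5, 581.9 and 495.1 in Gata4 siRNA cells, against 270.4, 267.1 and 421.0 in NT siRNA cells. NT siRNA array 3 stood well above the other controls and close to the lowest Gata4 siRNA array, and the relative spread of Slc25a44 among NT siRNA arrays, 27.5% of its mean, was the widest of the 24 genes above the noise floor on all arrays, with a log2 fold change of 0.67 ± 0.19. Slc25a38, which imports glycine for the first step of haem synthesis, read 1870.8, 1704.3 and 1530.9 in Gata4 siRNA cells and 1238.5, 1417.1 and 1018.6 in NT siRNA cells. Both groups spread widely, and the log2 fold change was 0.48 ± 0.15.

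The citrate carrier Slc25a1, which exports citrate to the cytosol for fatty acid and sterol synthesis, was lower. It read 454.9, 408.7 and 471.2 in Gata4 siRNA cells, against 921.9, 777.6 and 556.6 in NT siRNA cells. As with Slc25a44, NT siRNA array 3 was the control nearest to the Gata4 siRNA arrays, and the log2 fold change of -0.71 ± 0.18 was not called. It was called in 2 of the 10 alternatives, with values from -0.91 to -0.55. Slc25a24, a calcium-regulated exchanger of magnesium-ATP and phosphate, read 667.7, 644.3 and 706.7 in Gata4 siRNA cells and 897.4, 948.3 and 979.7 in NT siRNA cells. Its log2 fold change was -0.48 ± 0.11, and a second probe for the gene gave -0.61 ± 0.12, also with no overlap between the groups.

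All 6 members of the Slc17 and Slc35 families were higher in Gata4 siRNA cells, 4 of them called. Of all tested probes 4.07% were called higher, and of the tested probes that the authors called 50.9% had a positive log2 fold change. Since the authors' test chose the members, nothing is read from this count. Slc17a6 (VGLUT2), which loads glutamate into synaptic vesicles of neurons, had intensities of 77.6, 56.9 and 52.8 in Gata4 siRNA cells, against 8.4, 11.8 and 14.6 in NT siRNA cells. No NT siRNA array rose above the noise floor, so the transcript was at least 2.30-fold higher in Gata4 siRNA cells. A second probe read 71.4, 45.7 and 54.5 in Gata4 siRNA cells and 13.7, 9.5 and 12.4 in NT siRNA cells, again below the floor on all NT siRNA arrays and at least 2.14-fold higher. Slc17a5 (sialin), the lysosomal exporter of sialic acid, read 152.9, 219.4 and 207.8 in Gata4 siRNA cells and 121.7, 91.1 and 118.6 in NT siRNA cells. Gata4 siRNA array 1 lay nearest the controls, and the log2 fold change was 0.72 ± 0.17.

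Within Slc35, the smaller differences were those of the 2 members with a known substrate. Slc35e3, an orphan of the family, read 1407.5, 1535.1 and 1295.5 in Gata4 siRNA cells, against 865.5, 891.1 and 891.6 in NT siRNA cells. The NT siRNA arrays were nearly equal, and the log2 fold change was 0.67 ± 0.12. Slc35e4, also an orphan, read 95.8, 95.6 and 143.5 in Gata4 siRNA cells and 45.9, 63.6 and 65.7 in NT siRNA cells (log2 fold change 0.77 ± 0.18). Gata4 siRNA array 3 stood apart from the other arrays of its group, and the relative spread of Slc35e4 there, 24.7% of its mean, was the widest among the same 24 genes in that group.

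Slc35b2, the Golgi transporter of the sulfate donor PAPS, and Slc35b1, an ATP/ADP exchanger of the endoplasmic reticulum, were not called. Slc35b2 read 3451.2, 3201.2 and 3375.8 in Gata4 siRNA cells and 2851.0, 2597.6 and 2358.8 in NT siRNA cells, with a log2 fold change of 0.36 ± 0.12. Slc35b1 read 5683.0, 5540.6 and 4990.0 in Gata4 siRNA cells, against 4447.4, 4496.9 and 4180.2 in NT siRNA cells, with a log2 fold change of 0.30 ± 0.12. Together with Slc8a1 these were the 3 smallest differences among the 24 members measured in both groups, and none of the 3 was called in any of the 10 alternatives.

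The remaining 3 members were each the only one of their class, and all were called higher, beside 4.07% of all tested probes. Nothing is read from this count. Slc2a1 and Slc2a8, left out by the rule, fall in the class of Slc5a6 and were both called lower. Slc5a6 (SMVT), the sodium-dependent carrier of biotin, pantothenate and lipoate in a family that also holds glucose transporters, read 750.1, 693.5 and 708.1 in Gata4 siRNA cells and 467.8, 491.7 and 415.4 in NT siRNA cells. Both groups were tight, and the log2 fold change was 0.63 ± 0.12. Slc10a3, an orphan of the bile acid transporter family, read 556.4, 530.2 and 460.4 in Gata4 siRNA cells, against 253.9, 304.1 and 364.0 in NT siRNA cells. Its log2 fold change was 0.73 ± 0.16, with NT siRNA array 3 nearest the Gata4 siRNA arrays. Slc22a13, which belongs to the organic anion and urate transporters, read 20.7, 23.5 and 20.9 in Gata4 siRNA cells and 1.0, 2.9 and 2.3 in NT siRNA cells. The Gata4 siRNA arrays are barely above the noise floor and the NT siRNA arrays below it, so Slc22a13 was at least 1.12-fold higher.

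Viewed by array, no single sample lay nearest the other group for all members. Gata4 siRNA array 3 lay nearest to the NT siRNA mean for 15 of the 26 genes, array 2 for 7 and array 1 for 4. Among the controls NT siRNA arrays 1 and 3 lay nearest to the Gata4 siRNA mean for 11 genes each and array 2 for 4. These counts were not made over all probes. Array weights, which are lower for arrays that vary more, were estimated over all probes tested. They ran from 0.379 for NT siRNA array 3 to 1.97 for Gata4 siRNA array 2. For the 18 genes that were higher, the median deviation from the midpoint of the groups was 0.30 to 0.34 on the Gata4 siRNA arrays and -0.34 to -0.26 on the NT siRNA arrays, in log2 units. For the 8 genes that were lower it was -0.39 to -0.25 on the Gata4 siRNA arrays and 0.26 to 0.31 on the NT siRNA arrays. Over the 24 genes measured in both groups the SD between arrays was 7.79% of the mean (median over genes) in Gata4 siRNA cells and 9.69% in NT siRNA cells.

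**Figure D3:**
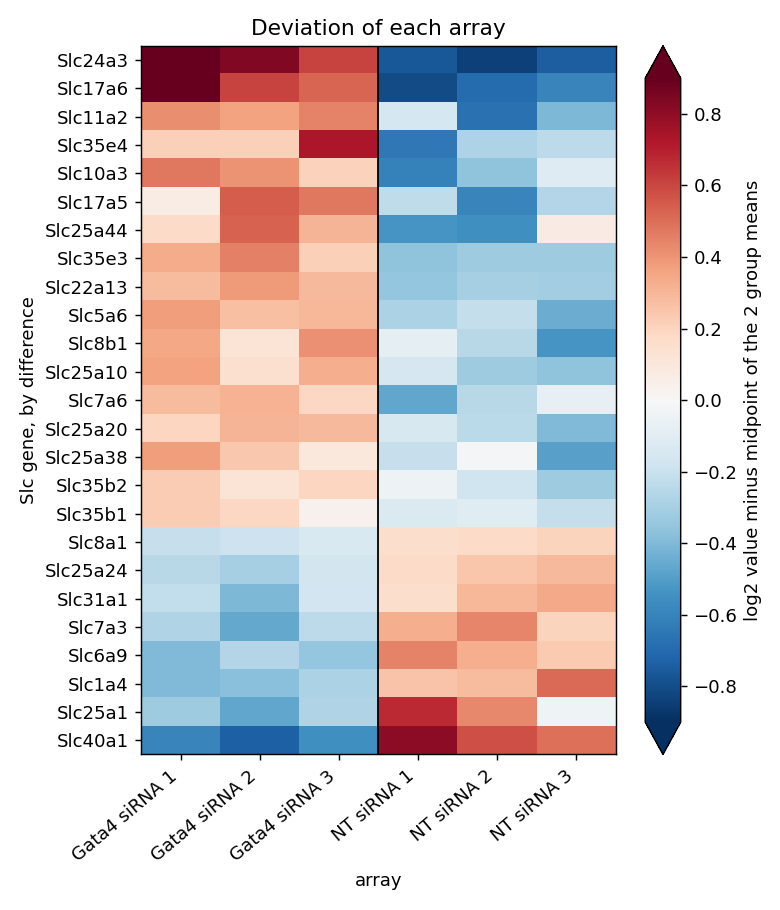
Each cell is the log2 value of an Slc gene (rows, 25 of the 26 genes, ordered by difference) on an array (columns, Gata4 siRNA left of NT siRNA) minus the midpoint of the 2 group means, with red above and blue below it. NT siRNA array 3 is pale for Slc25a44 and Slc25a1, where it lies nearest the Gata4 siRNA arrays.

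Since Gata4 binds DNA at GATA motifs, the bases upstream of the members' start sites were read from RefSeq (GRCm38.p6). Windows of 250 bases were found for 19 of the 26 genes, 73.1%, under the 80% set for reading a share over the members, so no share is given for them. The letters AGATAA or AGATAG or TGATAA or TGATAG were searched on both strands. At least 1 of them is held by 26.5% of all 32851 windows in the table. Counted by gene, it is 29.7% of 27025 genes. Matches were found for Slc17a5, Slc17a6, Slc22a13 and Slc8a1. No match lay in either window of Slc24a3. Among the genes without a window, and so not searched, were Slc40a1, Slc11a2, Slc10a3, Slc7a3, Slc25a44 and Slc8b1. The windows of Slc22a13 and Slc8a1 are shown because each holds 3 matches. For Slc17a6, at least 2.30-fold higher, the window with a match is shown, which belongs to a start site inside the gene. Each is printed in the direction of transcription, and capitals mark the matches on either strand. A match is a string of letters and not a measured site.
Slc17a6 (chr7:51624387-51624636, plus strand): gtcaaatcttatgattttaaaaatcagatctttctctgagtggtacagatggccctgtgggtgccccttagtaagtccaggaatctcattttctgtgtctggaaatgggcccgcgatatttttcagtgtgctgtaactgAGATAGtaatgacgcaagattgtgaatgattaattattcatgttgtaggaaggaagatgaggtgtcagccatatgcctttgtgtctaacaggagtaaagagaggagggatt
Slc22a13 (chr9:119209106-119209355, minus strand): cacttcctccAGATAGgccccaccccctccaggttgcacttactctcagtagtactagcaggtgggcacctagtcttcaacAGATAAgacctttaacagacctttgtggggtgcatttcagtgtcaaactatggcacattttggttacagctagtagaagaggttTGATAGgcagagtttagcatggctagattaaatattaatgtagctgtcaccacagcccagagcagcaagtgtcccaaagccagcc
Slc8a1 (chr17:81738388-81738637, minus strand): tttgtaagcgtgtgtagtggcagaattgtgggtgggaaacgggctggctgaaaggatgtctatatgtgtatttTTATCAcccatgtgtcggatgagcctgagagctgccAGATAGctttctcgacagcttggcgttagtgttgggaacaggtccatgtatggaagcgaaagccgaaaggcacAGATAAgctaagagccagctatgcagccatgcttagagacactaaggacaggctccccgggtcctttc

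In these windows the match of Slc17a6 began 111 bases before its internal start site. The matches began 240, 169 and 85 bases before the start of Slc22a13, and 177, 141 and 68 bases before that of Slc8a1. The other window of Slc17a6 (chr7:51621580-51621829), directly before the start of the gene at 51621830, held none. Slc17a6 and Slc22a13 were higher in Gata4 siRNA cells and Slc8a1 was lower.

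Some Slc genes lay outside the rule because the deposited symbol was an older or provisional name. By current symbol these were Slc35e2 with a log2 fold change of 0.63 ± 0.12, Slc66a2 with 0.58 ± 0.12, Slc20a2 with 0.34 ± 0.11 and Slc45a4 with -0.28 ± 0.11. Slc35e2 and Slc66a2 were called higher. The glucose transporters Slc2a1 and Slc2a8, left out by the rule, were at -0.67 ± 0.12 and -0.72 ± 0.17.

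Slc proteins depend on pumps that set up ion gradients, on chaperones that bring them to the membrane and on kinases that control their surface level. Of 23 such genes and other transporters named in the authors' deposited table and tested here, 10 were called higher, 4 lower and 9 were not called, and all had been selected by the authors in the same way. All 13 named pump genes had a positive log2 fold change, 6 of them called, beside 4.07% of all tested probes called higher and 50.9% positive among the probes the authors called. Nothing is read from this count. Among these were the V-ATPase subunits Atp6v0e2 (1.32 ± 0.17) and Atp6v0a1 (0.99 ± 0.12), parts of the proton pump that acidifies lysosomes and drives uptake into synaptic vesicles, and the Golgi calcium pump Atp2c1 (0.85 ± 0.19). Embigin, Emb, a chaperone of monocarboxylate transporters, was at 0.90 ± 0.15, and the organic anion transporter Slco4a1 at 1.34 ± 0.17. Of 3 ABC transporters Abcc5 was higher (0.75 ± 0.12) and Abcd4 (-0.83 ± 0.14) and Abcb10 (-0.48 ± 0.12) were lower. Of 5 regulators of surface transporters Sgk2 was at 2.28 ± 0.17, with NT siRNA array 1 below the noise floor, Oxsr1 at -0.62 ± 0.14 and Tsc22d3 at -0.55 ± 0.14.

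**Figure D4:**
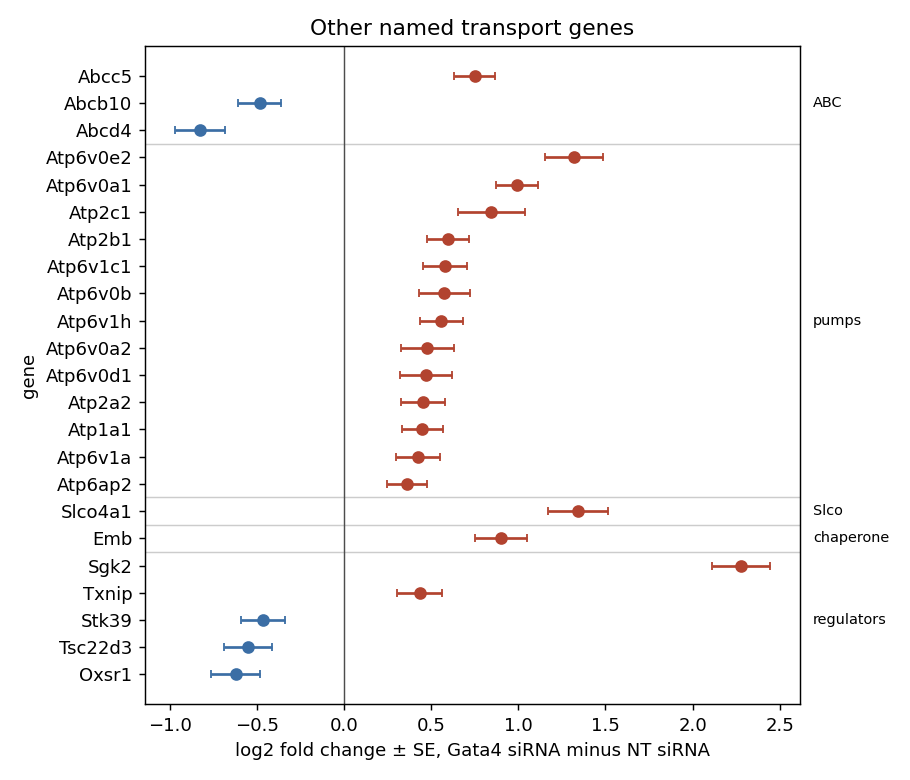
Log2 fold change (Gata4 siRNA minus NT siRNA, points) with its standard error (bars, 3 arrays per group) of 23 other transport genes named in the authors' deposited table. All 13 pump genes lie right of 0, while ABC transporters and regulators lie on both sides.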

How the data were processed

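Total RNA of 6 samples was hybridized to an Illumina MouseWG-6 v2.0 BeadChip, per the labels' protocols, and groups follow the sample titles. The design text numbers the controls differently from 3 per group, and the titles were used. The deposited intensity values are linear, and 37.1% lie below 0, so they were background-subtracted and nearly share a distribution. Per the submitters' processing notes GenomeStudio was used, with settings not given in the sources used here. Another 18 per-array columns fit none of the sample labels and stayed unused.

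Intensities were passed through normexp (background mean 0, SD 9.40 from the values below 0), 16 was added and log2 taken, which understates changes of dim probes. The noise floor of 17.1 is the size that 95% of the negative values stay under. Probes exceeding it on 3 or more arrays entered a linear model (limma 3.58.1 under R 4.3.3, moderated two-sided test), with p-values adjusted by Benjamini-Hochberg over all of them and called under 0.05. A probe with no array of a group above the floor gives a bound, the other group's mean log2 value against the floor. The test was tried on simulated data. Gene symbols are those deposited, brought up to date by Entrez number (RefSeq, GRCm38.p6, names only). Probe levels of different genes were not compared.

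The members, the classes by family number and the lists of other transport genes and markers were chosen with earlier results of these data known. 1 member is counted but not reported here by name, and the other 25 are named. The values of every array are given for the 10 largest positive differences (except that member's), all 8 negative differences and the 3 highest means. Other transport genes are named up to 3 per class. Shares of motifs over members could not be read, and protein sequences were not used. The alternatives were other floors and offsets, filters, a variance trend, array weights, a replicate block, another probe per gene and each array left out. Figures were drawn with matplotlib 3.10.9.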

Additional observations from a re-analysis of the deposited data

How the results depend on the processing

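The number of arrays and the nearness of dim probes to the noise floor limit all values. No member changed sign under the 10 alternatives followed gene by gene. Groups without overlap largely fix that sign, and the replicate block cannot move the fitted difference in this balanced design. Against 13 members called higher and 6 lower, values floored at 1 gave 7 called higher and 4 lower, with 4.14% of all probes called against 8.78%. Leaving out 1 array at a time gave 2 to 10 called higher and 1 to 5 called lower. The member counts stayed within 1.5 times with offset 50, the trend, array weights, the filters and the dimmest probe. Over all probes, however, 12.9% were called with offset 50, 13.4% with the trend and 17.4% with array weights, against 8.78%. The filter on all 6 arrays gave 12.4% and no filter 2.47%. With the filter on all 6 arrays Slc17a6 and Slc22a13 were not tested, so its members called higher were not the same genes. Only 2 genes had a second probe, and it was called the same way, so the dimmest probe could not move the member counts. With the replicate block 7 were called higher and 3 lower, with 4.15% of all probes called. The titles give replicate numbers without saying what they share. Deviations of same-numbered arrays correlated at -0.09 to -0.01 across probes, and those of other pairs at -0.13 to 0.22. Centring on 3 arrays per group constrains these values, so they cannot decide whether arrays were paired. Among single genes, 9 lost their call with the block, 8 with values floored at 1, and 16 without Gata4 siRNA array 2. The cause was not tested.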
